A study of Mus musculus with 6 samples.

Results

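The Hox genes encode homeodomain transcription factors that lie in 4 clusters in the mouse genome, Hoxa on chromosome 6, Hoxb on chromosome 11, Hoxc on chromosome 15 and Hoxd on chromosome 2. A gene is named by its cluster and by a paralogue number from 1 to 13, which follows its order in the cluster from the 3′ end to the 5′ end. They were described here by cluster and paralogue number in sorted cells of the mid-gestation mouse embryo. Of 38 Hox genes listed by symbol, 37 had a probe set that the platform annotation assigns to that gene alone, among 19937 genes measured in the same way. Each of the 37 had a single such probe set. Hoxb8 shared its probe set with Hoxb7 and is given separately.

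Hox genes are switched on along the body axis in the order in which they lie in their cluster, so that low paralogue numbers reach far towards the head and high numbers are confined to the trunk end, limbs and genital region. Retinoic acid and posterior signals start this sequence, Trithorax-group complexes keep active genes active and Polycomb-group complexes keep silent genes silent. Hox proteins bind DNA together with TALE homeodomain partners of the Pbx and Meis families. In the blood system of the mouse, several genes of the Hoxa and Hoxb clusters are known for roles in stem and progenitor cells.

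Cells came from the region of aorta, gonad and mesonephros of CD1 mouse embryos at E11.5 (embryonic day), the region where definitive haematopoietic stem cells arise beside the genital ridges that primordial germ cells colonise. Cells that carried CD31 and lacked CD45 and Ter119 were sorted, and surface c-kit split them into a positive and a negative population; the labels name no genetic change or treatment in either. There were 3 arrays for each population and 6 altogether. The labels call the replicates biological without saying how embryos were pooled, so p-values speak only of the spread among these arrays.

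Values are log2 RMA values, and differences are c-kit-positive minus c-kit-negative on that scale. Their standard error (SE) is from limma, a linear model that moderates each gene's variance towards a value common to all genes. A gene was called when its Benjamini-Hochberg adjusted p over all 19937 genes was under 0.05. At that threshold c-kit-positive cells had 540 higher genes (2.71% of all) and 937 lower ones (4.7%), together 7.41%. At an unadjusted p under 0.05 (limma), 2264 genes were higher and 1932 lower. The array medians lay between 5.42 and 5.52, and no pair of arrays held identical values. The number of arrays limits the precision, and no detection calls came with the values, so no Hox gene is called absent.

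Hox genes were lower in c-kit-positive cells or did not pass the test, and none was higher. Of 37 members 10 fell, or 27.0%, where 4.7% of all genes were lower. The fallen members were Hoxa2, Hoxa5, Hoxa10, Hoxb4, Hoxb5, Hoxc5, Hoxc10, Hoxd8, Hoxd9 and Hoxd10, and their falls ran from 1.58-fold to 3.63-fold. Of the 37 members 6 (16.2%) fell with a difference of at least 1 on the log2 scale, as did 3.08% of all genes. Among the genes that fell, these were 6 of the 10 Hox genes and 615 of all 937. The 10 fallen members came from all 4 clusters and from 6 of the 13 paralogue groups. The median of the 37 differences was -0.38, while the median over all genes was 0.07. Of the 37 differences 31 were below 0, against 7760 of all 19937 genes. The sign was not fixed for the smallest of the 31: Hoxb1 was above 0 with quantile normalization and Hoxd3 with median centring. The 3 arrays of each population did not overlap for 20 of 37 members with c-kit-positive cells lower, or 54.1%, where 10.6% of all genes were so placed, and for 2 with c-kit-positive cells higher, or 5.41%, where 16.2% of all genes were. Either way it was 26.8% of all genes.

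Leaving out single arrays lowered the number of fallen members: with c-kit-positive replicates 1, 2 and 3 removed in turn it was 4, 5 and 5, and with c-kit-negative replicates 1, 2 and 3 removed it was 6, 5 and 6. Hoxb4, Hoxc10 and Hoxd8 passed in each of these 6 fits. A linear model without variance moderation called 0 Hox genes, with 15 below 0 at an unadjusted p under 0.05. Of all 19937 genes that model called 216 lower, with 1544 below 0 at the same unadjusted p. In bulk samples a smaller share of Hox-expressing cells and less Hox RNA in each cell cannot be told apart.

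**Figure D1:**
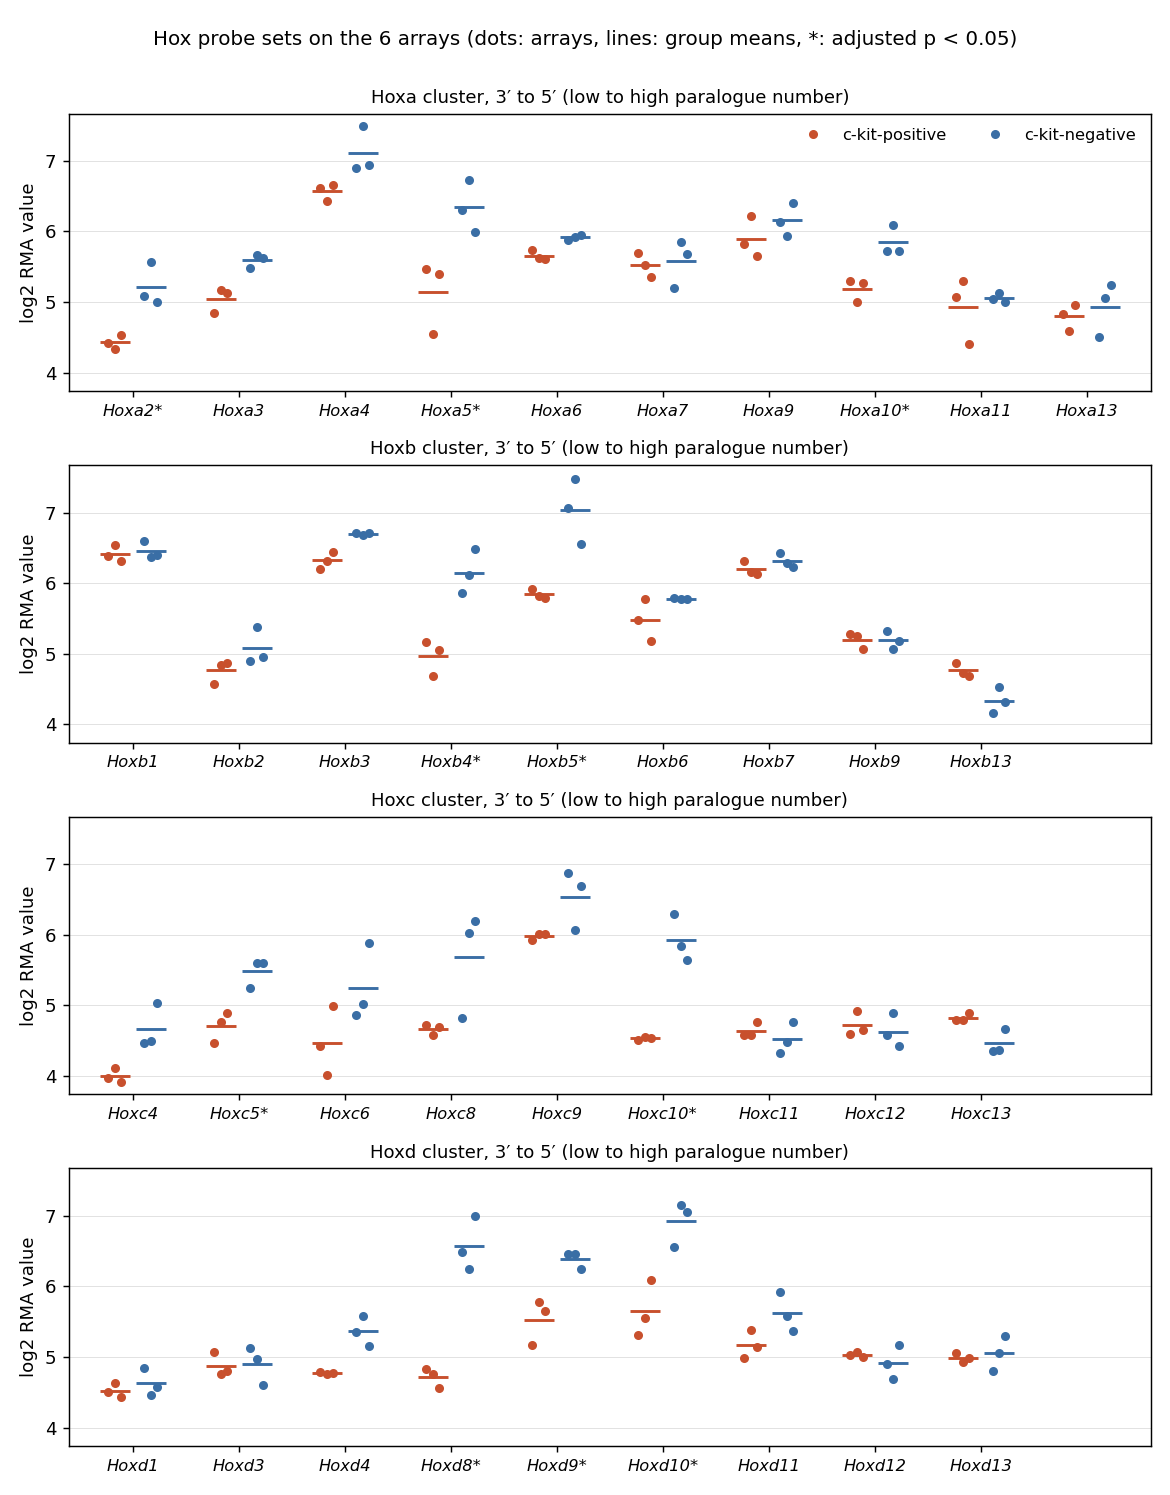
Log2 RMA values of the 37 Hox probe sets on the 6 arrays, 1 panel for each cluster, genes in order of paralogue number, c-kit-positive arrays left of c-kit-negative arrays, with lines at the group means and an asterisk at an adjusted p under 0.05. The c-kit-positive arrays lie below all c-kit-negative arrays for 20 genes, with Hoxd8 the widest gap, and above them for Hoxb13 and Hoxc13.

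Marker genes of the cell types this region holds differed on the same arrays, and their counts stand beside shares of 4.7% lower and 2.71% higher among all genes. The mean level of 19 mesenchymal and smooth muscle markers ran from 5.18 to 5.26 on c-kit-positive arrays, against 6.09 to 6.36 on c-kit-negative ones, and 9 of 19 fell. The mean of 16 endothelial markers was 5.75 to 6.07 on c-kit-positive arrays, against 8.53 to 8.61 on c-kit-negative ones, and all 16 fell. Primordial germ cell markers averaged 8.10 to 8.37 on c-kit-positive arrays, against 6.78 to 6.85 on c-kit-negative ones, and 10 of 12 rose. Of 13 haematopoietic progenitor markers 6 rose, with means of 7.21 to 7.30 on c-kit-positive arrays, against 6.60 to 6.71 on c-kit-negative ones. Of 12 mesonephric and gonadal epithelium markers 0 passed in limma, with 2 above 0 at an unadjusted p under 0.05, and of 8 neural markers 2 fell and 1 rose. The mean over the 37 Hox genes was 5.15 to 5.17 on c-kit-positive arrays, against 5.55 to 5.68 on c-kit-negative ones. The part of these cell types in the Hox differences was not tested.

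The Hoxd cluster held the member with the largest difference. Hoxd8, a gene of the trunk, measured 4.82, 4.76 and 4.55 in the c-kit-positive population, against 6.48, 6.25 and 6.99 in the c-kit-negative one. The groups lay more than 1 log2 unit apart, and the difference was -1.86 ± 0.20 (SE, 3.63-fold lower, adjusted p = 0.00111, limma). Hoxd10, which with its paralogues patterns the lumbar and sacral spine and hind limb nerves in the mouse, measured 5.31, 5.55 and 6.09 on c-kit-positive arrays, against 6.56, 7.15 and 7.06 on c-kit-negative arrays. No array of one population reached the other, and Hoxd10 fell by 1.27 ± 0.24 (SE, 2.41-fold lower, adjusted p = 0.0149, limma). Hoxd9 lies between Hoxd8 and Hoxd10 on the chromosome and measured 5.17, 5.77 and 5.65 in the c-kit-positive population, against 6.47, 6.45 and 6.25 in the c-kit-negative one. The fall of Hoxd9 was 1.81-fold (adjusted p = 0.0263, limma). Hoxd8, Hoxd9 and Hoxd10 are adjacent in the cluster and all fell. The call of Hoxd10 was lost without replicate 1 or 2 of the c-kit-positive arrays or replicate 2 or 3 of the c-kit-negative arrays, with differences from -1.49 to -1.10, and that of Hoxd9 was kept only without c-kit-positive replicate 2, with differences from -0.98 to -0.68.

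For the Hox genes on either side of these 3, the differences in the Hoxd cluster were smaller. Hoxd4, active in the neck region and hindbrain, measured 4.79, 4.76 and 4.78 on c-kit-positive arrays, against 5.35, 5.58 and 5.16 on c-kit-negative arrays, groups that did not overlap, with an adjusted p of 0.0508 (limma). Hoxd4 passed under 5 alternatives, with quantile normalization (adjusted p = 0.0405, limma) and array weights among them, and in none of the 6 fits with an array left out. Hoxd11 differed by -0.45 with overlapping groups (95% interval -0.87 to -0.03). Hoxd12 measured 5.03, 5.07 and 5.00 in the c-kit-positive population, against 4.90, 4.68 and 5.17 in the c-kit-negative one, and its interval ran from -0.25 to 0.47. Hoxd13, required for digits in the mouse, differed by -0.06, Hoxd3 by -0.02 and Hoxd1 by -0.11, none of which passed. The difference between neighbouring genes was not tested.

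Promoter windows of RefSeq (build GRCm38.p6, 250 bases before to 50 after a gene's start) matched 21 of the 37 members, with 23 windows, and 7 of the 10 members that fell. Shown are those of 4 fallen members, Hoxd8 (chr2:74704365-74704664, plus strand), Hoxd10 (chr2:74691641-74691940, plus strand), Hoxb4 (chr11:96318017-96318316, plus strand) and Hoxa5 (chr6:52204538-52204837, minus strand), and that of Hoxd12 (chr2:74674763-74675062, plus strand), a gene further 5′ that did not pass. Capitals mark the 6 letters of the retinoic acid receptor half-site AGGTCA on either strand, the only 1 of 4 searched motifs found in these windows, and the Hoxd12 window holds none. The 4 fallen members are shown because their windows hold this motif and Hoxd12 as one without it, so the choice followed the motif. The windows of Hoxd9, Hoxa2 and Hoxa10, which fell, hold none, and those of Hoxd3, Hoxd4 and Hoxc4, which did not pass, hold it.
Hoxd8: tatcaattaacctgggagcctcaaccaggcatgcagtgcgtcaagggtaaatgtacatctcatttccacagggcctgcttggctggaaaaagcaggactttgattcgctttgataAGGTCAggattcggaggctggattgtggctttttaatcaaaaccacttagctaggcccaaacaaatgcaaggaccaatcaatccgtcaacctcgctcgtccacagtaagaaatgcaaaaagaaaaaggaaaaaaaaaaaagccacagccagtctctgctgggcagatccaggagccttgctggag
Hoxd10: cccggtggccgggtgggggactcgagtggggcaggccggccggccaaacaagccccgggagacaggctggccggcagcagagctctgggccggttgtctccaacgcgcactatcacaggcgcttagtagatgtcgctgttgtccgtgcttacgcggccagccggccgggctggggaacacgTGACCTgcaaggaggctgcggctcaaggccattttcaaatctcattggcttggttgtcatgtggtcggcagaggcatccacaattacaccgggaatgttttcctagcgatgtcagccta
Hoxb4: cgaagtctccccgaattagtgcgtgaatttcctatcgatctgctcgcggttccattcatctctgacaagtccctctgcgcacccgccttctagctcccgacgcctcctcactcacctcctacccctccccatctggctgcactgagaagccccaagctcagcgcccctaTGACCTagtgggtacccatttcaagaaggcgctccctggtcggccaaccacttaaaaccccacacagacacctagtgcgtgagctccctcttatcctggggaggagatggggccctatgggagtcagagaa
Hoxa5: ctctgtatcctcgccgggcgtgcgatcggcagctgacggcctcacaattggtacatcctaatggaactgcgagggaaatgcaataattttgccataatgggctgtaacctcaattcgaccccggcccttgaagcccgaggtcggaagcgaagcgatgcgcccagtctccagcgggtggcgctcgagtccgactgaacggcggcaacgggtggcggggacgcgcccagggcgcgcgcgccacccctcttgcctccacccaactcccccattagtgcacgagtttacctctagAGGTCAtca
Hoxd12: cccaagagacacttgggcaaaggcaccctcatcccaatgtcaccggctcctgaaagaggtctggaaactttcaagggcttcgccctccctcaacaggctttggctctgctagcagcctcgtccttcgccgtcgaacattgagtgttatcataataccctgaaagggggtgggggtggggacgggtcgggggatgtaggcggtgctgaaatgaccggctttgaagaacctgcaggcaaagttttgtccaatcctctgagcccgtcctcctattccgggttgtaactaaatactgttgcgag

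AGGTCA stood in 4 of 8 windows of fallen members and in 3 of 15 windows of the other members, while 16.3% of all 32851 windows held it. The MEIS motif TGACAG stood in 1 of 8 and 1 of 15 windows (19.2% of all), the PBX-HOX motif TGATTNAT in 1 of 8 and 1 of 15 (3.22% of all), and the CDX motif TTTATG in 0 of 8 and 4 of 15 (11.9% of all). Both strands were searched. The Hox windows were rich in guanine and cytosine, with medians of 57.7% for the fallen members and 59.3% for the others against 52.7% for all windows. A match describes letters in the window and is not a bound site, and 3 fallen members had no window in the table.

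In the Hoxb cluster the central genes Hoxb4 and Hoxb5 fell. Hoxb4, known for expanding mouse haematopoietic stem cells when it is forced on, measured 5.16, 4.69 and 5.05 on c-kit-positive arrays, against 5.85, 6.11 and 6.48 on c-kit-negative arrays. All 3 c-kit-positive arrays lay lower, and Hoxb4 fell by 1.18 ± 0.20 (SE, 2.27-fold lower, adjusted p = 0.00990, limma). Hoxb5, a marker of long-term stem cells in adult mouse bone marrow and a regulator of vascular and enteric development, measured 5.92, 5.82 and 5.79 in the c-kit-positive population, against 7.07, 7.47 and 6.55 in the c-kit-negative one. Its fall was 2.27-fold (adjusted p = 0.0153, limma), and the c-kit-positive arrays spread by less than the c-kit-negative ones (SD 0.07 for c-kit-positive, against 0.46 for c-kit-negative). The call of Hoxb5 was lost without replicate 3 of the c-kit-positive arrays or replicate 1 of the c-kit-negative arrays, with a highest adjusted p of 0.0551 in limma.

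The other Hoxb genes with a probe set of their own did not pass. Hoxb2 measured 4.58, 4.84 and 4.87 on c-kit-positive arrays, against 4.90, 5.37 and 4.95 on c-kit-negative arrays, groups that lay apart by little (adjusted p = 0.353, limma). Hoxb3 differed by -0.38 and Hoxb6 by -0.30, also without overlap, while Hoxb1, the gene of a single hindbrain segment, and Hoxb7 differed by -0.04 and -0.11. Hoxb9 measured 5.28, 5.25 and 5.06 in the c-kit-positive population, against 5.33, 5.07 and 5.19 in the c-kit-negative one, and its interval of -0.32 to 0.32 leaves room for a change in either direction. Hoxb13, the most 5′ gene of the cluster and known from the tail and the prostate, measured 4.87, 4.73 and 4.69 on c-kit-positive arrays, against 4.16, 4.53 and 4.31 on c-kit-negative arrays. The c-kit-positive arrays were all higher, but the adjusted p was 0.134 (limma), and Hoxb13 lay in the dimmest 30% of all genes. The probe set shared by Hoxb8 and Hoxb7 measured 5.53, 5.47 and 5.28 in the c-kit-positive population, against 6.02, 6.02 and 5.83 in the c-kit-negative one, a difference of -0.53 that cannot be given to either gene and was not tested.

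Hoxc10 had the smallest p of the Hoxc cluster. It is a paralogue of Hoxd10 and Hoxa10 and measured 4.51, 4.55 and 4.54 on c-kit-positive arrays, against 6.29, 5.83 and 5.65 on c-kit-negative arrays. The groups were more than 1 log2 unit apart, and Hoxc10 fell by 1.39 ± 0.18 (SE, 2.63-fold lower, adjusted p = 0.00261, limma). Hoxc5 measured 4.47, 4.76 and 4.89 in the c-kit-positive population, against 5.25, 5.60 and 5.60 in the c-kit-negative one, and fell 1.72-fold (adjusted p = 0.0287, limma). That call was lost without replicate 1 or 2 of the c-kit-positive arrays or replicate 2 or 3 of the c-kit-negative arrays, with differences from -0.90 to -0.66.

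Between Hoxc5 and Hoxc10 the differences had the same sign but larger spread. Hoxc8, a gene of the thoracic spine, measured 4.72, 4.58 and 4.69 on c-kit-positive arrays, against 4.82, 6.03 and 6.19 on c-kit-negative arrays. Replicate 1 stood apart from the other c-kit-negative arrays, and Hoxc8 passed without it (difference -1.45) but not with it (-1.02, adjusted p = 0.111, limma). Hoxc9, which organises thoracic motor neurons in the mouse, measured 5.93, 6.01 and 6.02 in the c-kit-positive population, against 6.87, 6.06 and 6.70 in the c-kit-negative one, and passed only without c-kit-negative replicate 2 (difference -0.80 there and -0.56 with all arrays). Hoxc4 measured 3.97, 4.11 and 3.92 on c-kit-positive arrays, against 4.46, 4.50 and 5.03 on c-kit-negative arrays, and missed the threshold with an adjusted p of 0.0658 (limma). Hoxc6 differed by -0.78 with overlapping groups.

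Past Hoxc10 no gene of the cluster passed, and all 3 differences were above 0. Hoxc11 and Hoxc12 differed by 0.12 and 0.09, each with an interval that included 0, and the sign of Hoxc12 turned without c-kit-negative replicate 3. Hoxc13, known from hair and nail, measured 4.79, 4.80 and 4.89 in the c-kit-positive population, against 4.35, 4.37 and 4.66 in the c-kit-negative one, groups that did not overlap, with an adjusted p of 0.180 (limma). The interval of Hoxc10, -1.80 to -0.98, lay below that of Hoxc11, -0.24 to 0.47, although these genes are neighbours. The difference between them was not tested. Hoxc11, Hoxc12 and Hoxc13 lay in the dimmest 30% of all genes by mean level, where a fall may not show.

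In the Hoxa cluster 3 genes fell, and none of these calls was kept in more than 1 of the 6 fits with an array left out. Hoxa5, known from lung development and from restraint of angiogenesis in endothelium, measured 5.47, 4.54 and 5.40 on c-kit-positive arrays, against 6.31, 6.72 and 5.99 on c-kit-negative arrays. The groups did not overlap although c-kit-positive replicate 2 stood below the others, and Hoxa5 fell by 1.20 ± 0.28 (SE, 2.30-fold lower, adjusted p = 0.0378, limma). Hoxa2, which sets the identity of the second pharyngeal arch, measured 4.42, 4.33 and 4.54 in the c-kit-positive population, against 5.08, 5.56 and 5.00 in the c-kit-negative one, a 1.72-fold fall (adjusted p = 0.0333, limma). Hoxa10, also known from the uterus and from leukaemia, measured 5.29, 5.00 and 5.28 on c-kit-positive arrays, against 5.72, 6.09 and 5.72 on c-kit-negative arrays, a 1.58-fold fall (adjusted p = 0.0473, limma). Hoxa2 and Hoxa5 passed only without c-kit-negative replicate 3, and Hoxa10 in none of the 6 fits, nor with median centring or quantile normalization. With the replicate block 0 Hoxa genes passed in limma (5 below 0 at an unadjusted p under 0.05), with adjusted p of 0.0615 for Hoxa2, 0.0685 for Hoxa5 and 0.0961 for Hoxa10.

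The other Hoxa genes did not pass. Hoxa3, which in the mouse embryo can hold back blood formation from endothelium, differed by -0.54 without overlap (adjusted p = 0.0607, limma). Hoxa4 measured 6.62, 6.44 and 6.66 in the c-kit-positive population, against 6.90, 7.49 and 6.94 in the c-kit-negative one, also without overlap. Hoxa9, a factor of haematopoietic stem cells and leukaemia, measured 5.82, 6.22 and 5.65 on c-kit-positive arrays, against 6.13, 5.94 and 6.40 on c-kit-negative arrays, with overlapping groups and an interval of -0.70 to 0.18. Hoxa7 measured 5.69, 5.52 and 5.35 in the c-kit-positive population, against 5.21, 5.84 and 5.69 in the c-kit-negative one, and its sign turned without replicate 3 of the c-kit-positive arrays or replicate 2 of the c-kit-negative arrays. Hoxa6, Hoxa11 and Hoxa13 differed by -0.26, -0.13 and -0.14.

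By cluster, the counts of fallen members were 3 of 10 for Hoxa, 2 of 9 for Hoxb, 2 of 9 for Hoxc and 3 of 9 for Hoxd, where 4.7% of all genes were lower. The median differences were -0.40, -0.30, -0.66 and -0.45 in that order of clusters, beside 0.07 over all genes. With an array left out the counts ranged from 0 to 2, from 1 to 2, from 1 to 3 and from 1 to 2. All 10 Hoxa differences were below 0, against 7 of 9 for Hoxb, 6 of 9 for Hoxc and 8 of 9 for Hoxd. No cluster was tested against another.

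Ordered by paralogue number instead, every measured member of groups 5 and 10 fell, where 4.7% of all genes were lower. All 3 members of group 5 fell, Hoxa5, Hoxb5 and Hoxc5, with a median difference of -1.19, and all 3 members of group 10 fell, Hoxa10, Hoxc10 and Hoxd10, with a median of -1.27. In the 6 fits with an array left out, Hoxb5 passed in 4, Hoxc5 in 2 and Hoxa5 in 1. In group 10, Hoxc10 passed in all 6, Hoxd10 in 2 and Hoxa10 in 0. Neither group had all its members past the threshold in any of these fits. In group 8 Hoxd8 fell and Hoxc8 did not pass (median -1.44). In group 4 only Hoxb4 passed, but the 4 members were all below 0 without overlap, as 10.6% of all genes were, from -1.18 to -0.54. Groups 6 and 7 between them held 0 calls among 5 genes in limma (1 below 0 at an unadjusted p under 0.05), with medians of -0.30 and -0.09. Groups 1 and 3 had none among 5 genes (2 at an unadjusted p under 0.05), and in group 2 Hoxa2 fell. These groups are small, and their members share homeobox sequence that probes of a paralogue may in part detect, which was not tested.

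**Figure D2:**
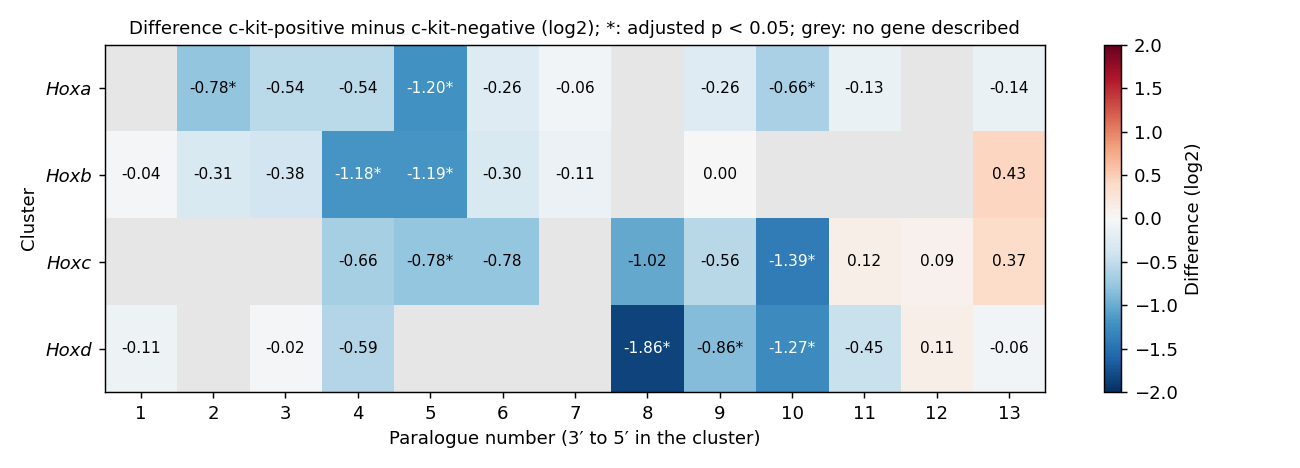
Differences, c-kit-positive minus c-kit-negative on the log2 scale, laid out by cluster (rows) and paralogue number (columns), blue below 0 and red above 0, with an asterisk at an adjusted p under 0.05 and grey where no gene is described. The darkest cells are Hoxd8 at -1.86, Hoxc10 at -1.39 and Hoxd10 at -1.27, and columns 12 and 13 hold 4 of the 6 values above 0.

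The conventional division of the clusters gave 1 fallen gene of 7 anterior ones (groups 1 to 3), 5 of 14 central ones (groups 4 to 8) and 4 of 16 posterior ones (groups 9 to 13), where 4.7% of all genes were lower. The medians were -0.31, -0.72 and -0.13. Central genes did not overlap between the populations in 11 of 14 cases, all lower in c-kit-positive cells, where 10.6% of all genes were so placed. The posterior genes were of unlike kinds: the 4 that fell had numbers 9 and 10, and none of the 9 genes with numbers 11 to 13 passed, with a median of 0.09 and 1 below and 2 above 0 at an unadjusted p under 0.05 in limma. Between numbers 4 and 10, 9 of 21 genes fell, with a median of -0.66. The median over all genes was 0.07. All genes with numbers 11 to 13 lay in the lower 50% of all genes by mean level, where a fall may not show. Of these, Hoxa13, Hoxb13, Hoxc11, Hoxc12 and Hoxc13 were in the dimmest 30%, as were Hoxc4 and Hoxc6 between numbers 4 and 10. The spans 4 to 10 and 11 to 13 were drawn after the values were seen, so these counts are a description and were given no test.

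**Figure D3:**
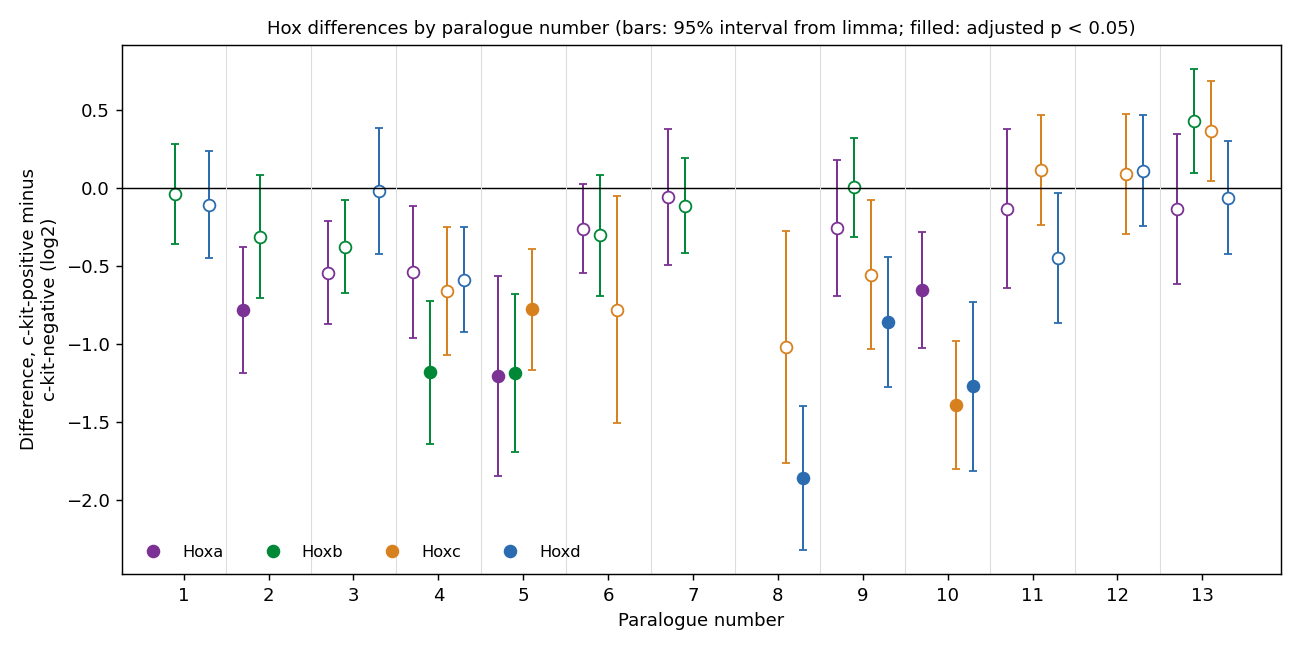
Differences of the 37 Hox genes against paralogue number, c-kit-positive minus c-kit-negative on the log2 scale, coloured by cluster, with 95% intervals from limma and filled points at an adjusted p under 0.05. The intervals of 19 genes lie below 0 and those of 2 genes, Hoxb13 and Hoxc13, above it, before any adjustment for the number of genes. Of all 19937 genes, 1932 lie below and 2264 above 0 at the matching unadjusted p under 0.05 (limma).

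The spread of Hox values between arrays differed between the populations. The SD of the 3 arrays had a median over the 37 genes of 0.12 on c-kit-positive arrays, against 0.25 on c-kit-negative ones, and was larger in c-kit-negative cells for 27 genes. These SDs were not set beside those of all genes, so they are not shown to be particular to the Hox genes. Hox levels were also lower on c-kit-positive arrays, and the part of level in this spread was not tested. Most members were dim: the mean over the 6 arrays lay in the lowest 30% of all genes for 10 members and in the lower 50% for 26. Of the fallen members Hoxa2 alone was among the dimmest 30%, but 6 of the 10 lay in the lower 50%. Hoxb4, Hoxc10 and Hoxd8 were among those 6, with c-kit-positive means of 4.97, 4.53 and 4.71. The mean level that bounds the dimmest 30% of all genes was 4.89.

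Genes beside and inside the clusters, taken as the nearest 3 measured genes on each side and all measured noncoding genes between the outermost Hox genes, were read for comparison. Their choice by chromosome order was made after the Hox values were seen. Among 24 flanking genes 0 fell and 1 rose in limma, where 4.7% and 2.71% of all genes did, with 1 below and 4 above 0 at an unadjusted p under 0.05, and their median was 0.09. The riser was Calcoco2, an autophagy receptor gene near the 5′ end of the Hoxb cluster, at 6.75, 6.10 and 6.83 on c-kit-positive arrays, against 4.33, 4.89 and 5.13 on c-kit-negative arrays (3.43-fold higher, adjusted p = 0.00458, limma). A second probe set of Calcoco2 averaged 5.05 on c-kit-positive arrays, against 4.55 on c-kit-negative ones, and did not pass (adjusted p = 0.232, limma). Evx1 and Evx2, homeobox genes beside the 5′ ends of Hoxa and Hoxd, differed by 0.04 and 0.05, and did not pass.

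Inside the clusters, 4 long noncoding RNAs were measured and all had lower c-kit-positive values without overlap, as 10.6% of all genes did. Haglr, transcribed from within the Hoxd cluster, measured 4.22, 4.24 and 4.24 in the c-kit-positive population, against 5.66, 5.26 and 5.43 in the c-kit-negative one. It fell 2.32-fold (adjusted p = 0.00185, limma), passed in each of the 6 fits with an array left out, and was the only 1 of the 4 to pass, where 4.7% of all genes were lower. Hoxd3os1 measured 5.15, 5.26 and 5.01 on c-kit-positive arrays, against 6.21, 7.17 and 5.55 on c-kit-negative arrays and did not pass with all arrays (adjusted p = 0.0920, limma). Its second probe set averaged 4.69 on c-kit-positive arrays, against 4.56 on c-kit-negative ones, and had the opposite sign, and without c-kit-negative replicate 3 the call was reached (adjusted p = 0.0237, limma), as it was with the replicate block (0.0468). Hoxaas2 and 5730596B20Rik in the Hoxa cluster differed by -0.18 and -0.48.

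The clusters also hold microRNA genes, small RNAs known to repress Hox messengers among other targets. Their mature sequences from RefSeq (build GRCm38.p6) fall into 2 shared seeds and a single one, with the seed (bases 2 to 8) in capitals.
miR-10a-5p: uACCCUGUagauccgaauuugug
miR-10b-5p: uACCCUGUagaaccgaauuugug
miR-196a-5p: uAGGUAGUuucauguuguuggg
miR-196b-5p: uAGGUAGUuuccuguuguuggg
miR-615-3p: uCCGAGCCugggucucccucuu

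Of 6 microRNA genes inside the clusters (Mir10a, Mir10b, Mir196a-1, Mir196a-2, Mir196b and Mir615), 0 passed in limma and 0 had an unadjusted p under 0.05, and their differences ran from -0.01 to 0.21. Mir10b lies beside Hoxd4 and averaged 2.48 on c-kit-positive arrays, against 2.49 on c-kit-negative ones. Mir196a-2, next to Hoxc10, averaged 3.84 on c-kit-positive arrays, against 3.79 on c-kit-negative ones. These probe sets read the long array targets made from total RNA and are not a measurement of the mature microRNAs.

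**Figure D4:**
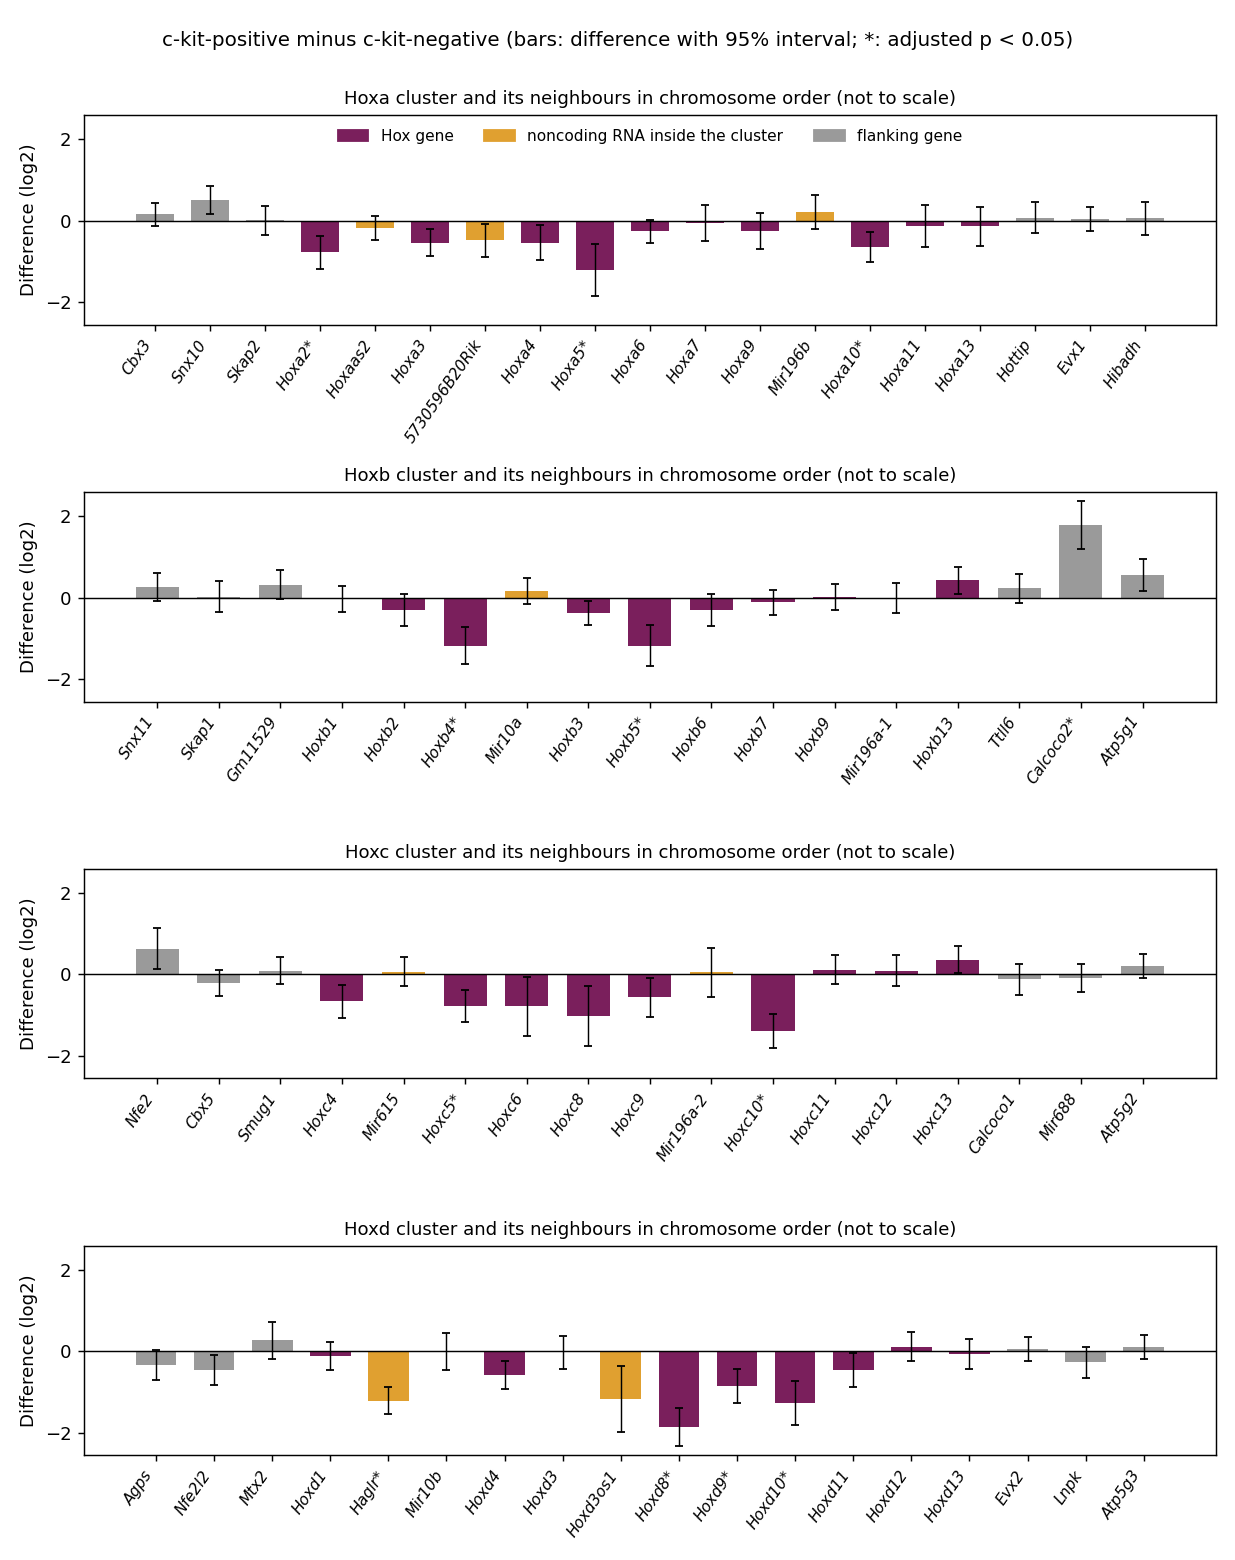
Differences, c-kit-positive minus c-kit-negative on the log2 scale with 95% intervals from limma, for the measured genes of each Hox cluster and 3 flanking genes on each side, in chromosome order and not to scale. Calcoco2, at 1.78, is the only flanking gene past the threshold, and Haglr and Hoxd3os1 lie at -1.22 and -1.17 among the Hoxd genes.

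Among the protein partners of Hox factors, 1 of 10 measured TALE genes fell and none rose, with a median of -0.20, where 4.7% of all genes were lower and 2.71% higher. A single call among 10 genes is near that share. It was Meis2, a cofactor that binds DNA with Hox and Pbx proteins, at 5.92, 5.86 and 5.35 in the c-kit-positive population, against 8.36, 8.33 and 8.59 in the c-kit-negative one. Meis2 was 6.58-fold lower (adjusted p = 8.83e-05, limma), a larger difference than that of any Hox gene measured here. Meis1, the partner best known in blood stem cells, measured 7.22, 7.88 and 7.60 on c-kit-positive arrays, against 7.90, 7.66 and 8.21 on c-kit-negative arrays, with overlapping groups, and did not pass (adjusted p = 0.386, limma). Pbx3 measured 6.08, 6.07 and 6.32 in the c-kit-positive population, against 6.99, 6.45 and 7.70 in the c-kit-negative one, without overlap. It did not pass either (adjusted p = 0.111, limma), except without c-kit-negative replicate 2. Of 6 Cdx and ParaHox genes, relatives of the Hox genes of which the Cdx factors switch on Hox clusters, 0 passed in limma, where 7.41% of all genes did in either direction, and 3 were above 0 at an unadjusted p under 0.05. At that unadjusted p 2264 of all 19937 genes were above 0 (limma). Cdx4 had the smallest p of the 6, at 3.31 ± 0.23 for c-kit-positive cells, against 2.89 ± 0.09 for c-kit-negative ones (SD, n = 3 each, adjusted p = 0.165, limma). The 3 genes were Cdx4, Cdx2 and Pdx1, and their means in both populations lay under 4.89, the level that bounds the dimmest 30% of all genes.

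Signals upstream of the clusters moved in both directions. Of 16 measured genes 2 fell and 1 rose, where 4.7% and 2.71% of all genes did. Rarb, a retinoic acid receptor gene that retinoic acid itself induces, measured 5.18, 5.68 and 5.85 on c-kit-positive arrays, against 6.68, 7.23 and 6.64 on c-kit-negative arrays, a 2.42-fold fall (adjusted p = 0.0121, limma) that passed in each of the 6 fits with an array left out. Aldh1a2, which makes retinoic acid, was 2.15-fold lower (adjusted p = 0.0363, limma), and passed in only 1 of those fits, the one without c-kit-negative replicate 1. Zbtb16, a zinc finger repressor that restrains Hox genes in the mouse limb, measured 6.64, 6.77 and 7.24 in the c-kit-positive population, against 6.10, 5.83 and 5.48 in the c-kit-negative one. It was 2.11-fold higher (adjusted p = 0.0200, limma), and that call was lost without replicate 3 of the c-kit-positive arrays or replicate 2 or 3 of the c-kit-negative arrays.

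The chromatin complexes that keep Hox genes on or off gave 4 rises and no falls. Of 14 Trithorax-type genes 2 rose, Wdr5 (2.09-fold higher, adjusted p = 0.0157, limma) and Ash2l (1.73-fold higher, adjusted p = 0.0304, limma), core subunits of the MLL histone methyltransferase complexes, with a median of 0.05 for the list. Of 19 Polycomb genes 2 rose, Eed (1.55-fold higher, adjusted p = 0.0241, limma) and Suz12 (1.41-fold higher, adjusted p = 0.0490, limma), core subunits of Polycomb repressive complex 2, with a median of 0.18. A second probe set of Eed averaged 3.88 on c-kit-positive arrays, against 3.56 on c-kit-negative ones, and with it Eed did not pass (difference 0.31, adjusted p = 0.469, limma). Among all genes 2.71% were higher and 4.7% lower, and the median over all genes was 0.07. Eed and Suz12 passed in none of the 6 fits with an array left out. Wdr5 was kept only without replicate 1 of the c-kit-positive arrays or replicate 1 of the c-kit-negative arrays, and Ash2l only without replicate 2 of the c-kit-positive arrays or replicate 3 of the c-kit-negative arrays. Phf19, a Polycomb accessory gene, averaged 6.70 ± 0.56 for c-kit-positive cells, against 5.58 ± 0.51 for c-kit-negative ones (SD, n = 3 each), and passed only without c-kit-negative replicate 3. The mean level of the germ cell markers was higher on the same c-kit-positive arrays, as given above, and its part in these rises was not tested.

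**Figure D5:**
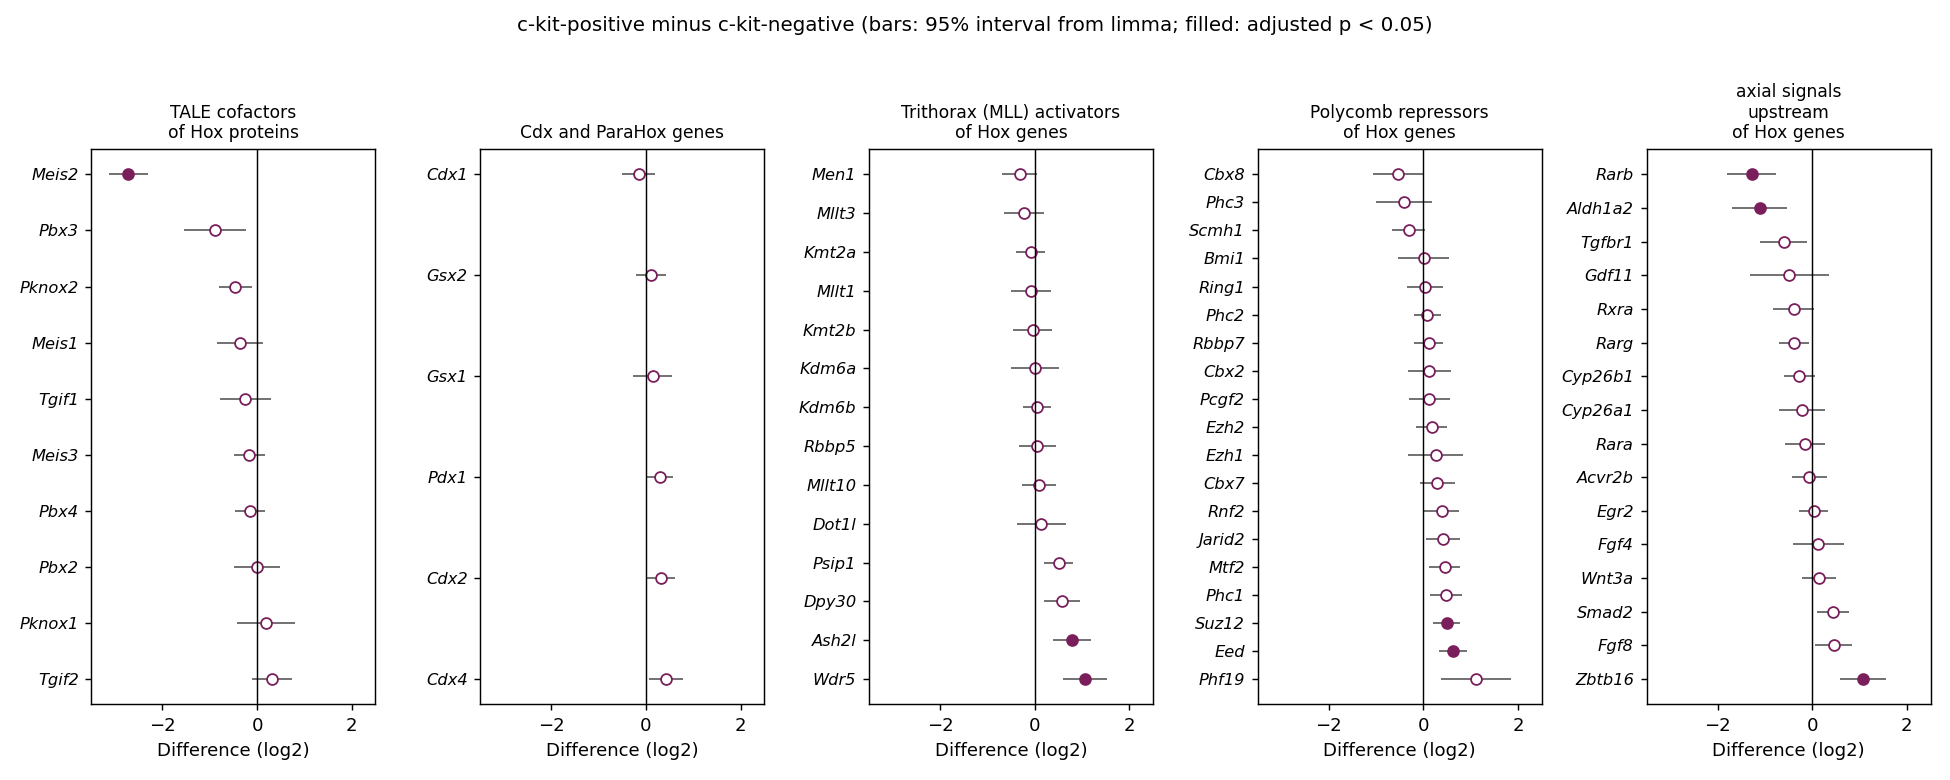
Differences, c-kit-positive minus c-kit-negative on the log2 scale, of TALE cofactors, Cdx and ParaHox genes, Trithorax-type activators, Polycomb repressors and axial signals, with 95% intervals from limma and filled points at an adjusted p under 0.05. Meis2 lies at -2.72 and Rarb at -1.28, and Wdr5, Ash2l, Eed, Suz12 and Zbtb16 lie above 0.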

How the data were processed

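Total RNA of 6 sorted samples, 3 c-kit-positive and 3 c-kit-negative, was measured with 1 array each. Per the labels' protocols 5 ng of RNA was amplified with a whole-transcript kit before labelling, which can distort ratios between transcripts. RMA, per the submitters' processing notes, gave the log2 values that the authors deposited. Its version and settings are not given in the sources used. Of 34760 probe sets 21640 had 1 gene symbol in the platform annotation, 1321 had several and 11799 were not listed there. The probe set with the highest mean was kept for each of 19937 genes, which for 954 genes meant a choice among several. Symbols were checked against RefSeq by Entrez identifier (21553 probe sets matched, 0 symbols changed).

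The comparison used limma 3.58.1 under R 4.3.3 (two-sided, no filter, no block) over all 19937 genes, and the fit was tested on simulated data. An exact permutation test of 3 against 3 arrays cannot go below p = 0.1 and was not used. The Hox genes and the lists of cofactors, regulators and cell type markers were chosen with earlier results of these data known. Every fallen Hox gene, the other members of its paralogue group and the extreme genes of each cluster are given by array, and from each cofactor and regulator list the genes past the threshold or the gene of smallest p, with Meis1, Pbx3 and Phf19 named after their values were seen. Marker lists are given by counts and means alone. List members with no single-gene probe set were left out. Alternatives were other normalizations, filters on dim genes, other choices of probe set, other variance models and thresholds, a replicate block and leaving out each array. Figures were drawn with matplotlib 3.10.9.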

Additional observations from a re-analysis of the deposited data

How the results depend on the processing

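The count of fallen Hox genes was 10 with all arrays and ran from 4 to 6 with 1 array left out. It was 4 without the dimmest 50% of genes, which tested 11 members, 3 at an adjusted p under 0.01, 6 with a difference of at least 1 as well, and 0 without variance moderation. It was 9 with median centring, 11 with array weights, the mean of probe sets or quantile normalization, and 12 with a trended robust prior, with Hoxd4 gained in each of the last 4; no Hox gene was called higher under any alternative run. Over all genes the falls numbered 216 without moderation, 499 at 0.01 and 615 with the size limit, and 670 to 745 with an array left out, while the rises numbered 66, 131 and 215, and 276 to 369. Of the cofactor and regulator lists, with Calcoco2 and 21 other genes beside or within the clusters but without the long noncoding RNA Haglr, 3 genes fell and 6 rose. The falls became 1 without moderation and 1 at 0.01, and the rises 3 with the dimmest probe set of each gene, 1 without moderation, 1 at 0.01, 3 with the size limit and 1 to 4 with an array left out. The Hox median of -0.38 was -0.35 with median centring and -0.35 with quantile normalization, -0.54 without the dimmest 30% or 50%, and -0.45 to -0.32 with an array left out. For Hoxb the median was -0.25 without the dimmest 50% and -0.35 to -0.15 with an array left out, for Hoxc -0.90 without the dimmest 30% and -0.76 to -0.48, for Hoxd -0.59 and -1.07 without the dimmest 30% and 50% and -0.58 to -0.30, and for Hoxa -0.48 to -0.36. The filters change which genes enter the median; the cause of the other shifts was not tested.

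Signs turned only for genes that had not passed. With quantile normalization Hoxb1 was at 0.0236 and Hoxb9 at -0.0070, with median centring Hoxd3 was at 0.0037, and with its dimmer probe set Hoxd3os1 was at 0.13. With an array left out the ranges that crossed 0 were -0.24 to 0.0749 for Hoxa7, -0.32 to 0.13 for Hoxa11, -0.35 to 0.0175 for Hoxa13, -0.11 to 0.0311 for Hoxb1, -0.0599 to 0.0713 for Hoxb9, -0.0117 to 0.22 for Hoxc12, -0.19 to 0.0001 for Hoxd1, -0.17 to 0.0931 for Hoxd3, -0.0063 to 0.24 for Hoxd12 and -0.19 to 0.0621 for Hoxd13. The labels do not say whether arrays with the same replicate number came from one preparation, and this was not tested. Deviations from the group means of arrays with the same number correlated at 7e-04, 0.02 and 0.06 across genes. Between arrays with different numbers the correlations ran from -0.057 to 0.0359. With the replicate block 8 Hox genes fell, Hoxc6 among them and without Hoxa2, Hoxa5 and Hoxa10. Over all genes 476 rose and 879 fell with the block.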
